A study of Mus musculus with 59 samples.

Results

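The genes described here are 10 that encode enzymes writing or erasing methylation of lysine 4 of histone H3 (H3K4), or subunits those writers share, chosen by name from the 24421 genes of an expression table of cloned mouse embryos. All 10 were found in the table. They are the 6 methyltransferases Kmt2a, Kmt2b, Kmt2c, Kmt2d, Setd1a and Setd1b, the 2 demethylases Kdm5a and Kdm5b, and the 2 shared subunits Wdr5 and Ash2l. The embryos were clones: a somatic nucleus was transferred into an enucleated oocyte (somatic cell nuclear transfer, SCNT), which was then activated. There were 3 untreated groups, collected as 1-cell embryos 13 to 14 h after activation, as early 2-cell embryos after 20 to 21 h and as late 2-cell embryos after 33 to 34 h. The remaining group, of the same age as the last, had received trichostatin A (TSA), which inhibits histone deacetylases. The labels list 5 poly(A) RNA libraries for each of these groups, but the table gives each gene a single value per group, so values below carry no error and differences no p-value. All groups are labelled strain BDF1, the untreated ones with the treatment WT, the labels name cumulus cells as nuclear donors, and the collection protocol that all embryos share names C57BL/6n oocyte donors of 5 to 7 weeks. Dose and duration of TSA are not given in the labels, and the match of the 1-cell group to its column rests on the 13 h in the column's name.

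Methylation of H3K4 marks active and poised regulatory DNA: the trimethylated form sits at promoters, the monomethylated form at enhancers. In mammals it is written by large complexes, called COMPASS after their yeast relative, each built around 1 of the methyltransferases and a core that includes WDR5, RBBP5, ASH2L and DPY30. The oocyte carries unusually broad domains of H3K4 trimethylation, laid down mainly by MLL2, the product of Kmt2b, and in fertilized embryos these are removed around the time the embryonic genome is switched on at the 2-cell stage, a step that depends on KDM5A and KDM5B. In cloned embryos the chromatin comes from a somatic nucleus, and H3K4 methylation inherited from the donor cell has been discussed as a barrier to reprogramming. These statements are background and not results.

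Levels are given in FPKM, a fragment count corrected for transcript length and library total, so that genes can be set beside each other. FPKM is relative to the rest of a column, and a gene with more transcripts cannot be told apart from 1 that kept its transcripts while others lost theirs, nor fewer cells from less RNA per cell. Differences are between values of log2(FPKM + 1), which understates changes of genes near or under 1 FPKM, and a difference of 1 or more, which is 2-fold on that scale, was counted as higher or lower. The depth of the libraries is unknown. Genes with at least 1 FPKM numbered 9419 to 12215 per column. All 10 oocyte and early embryo markers examined were at 1 FPKM or more in every column, and their summed level was 7064, 7800, 2661 and 2034 FPKM in the 1-cell, early 2-cell, late 2-cell and TSA-treated columns. In the same order, 9 markers of the 2-cell stage summed to 177, 295, 689 and 1050.0 FPKM. Of 15 cumulus and granulosa cell markers, 5 reached 1 FPKM in each column and the sums were 40.6, 30.9, 74.9 and 89.2 FPKM, most of the late values being Nr5a2 at 52.7 and 69.0 FPKM, a transcription factor gene that early embryos also express. Amhr2 was at 0.02 FPKM in early 2-cell embryos and at 3.01 and 4.96 in the late columns, Kitl at 5.07, 11.8 and 10.2 and Fshr at 0.29, 1.64 and 0, while Inha was listed at 0 in all 3. Of 7 blood cell markers, 0 reached 1 FPKM in the early columns and 4 did in the late ones, with sums of 52.4 FPKM without and 69.9 with TSA, mainly Hba-a1, while Hbb-b1 and Ptprc were listed at 0 in both. The part of other cell types in the late 2-cell values was not tested.

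The 2 demethylases were low in the early and high in the late columns. Kdm5a, which encodes a JmjC-domain enzyme that removes trimethyl and dimethyl groups from H3K4, was at 1.24 FPKM in 1-cell embryos, 1.81 at the early and 25.4 at the late 2-cell stage, and 26.4 with TSA. Kdm5b, its close relative, was at 1.49, 2.23, 26.1 and 31.1 FPKM in the same order. The late values of both lay far above the early ones, and the untreated values differed by 14.1-fold for Kdm5a and 11.7-fold for Kdm5b between the 2-cell stages in plain FPKM. The levels of the 2 genes stayed close to each other, with Kdm5b at 1.03 to 1.23 times Kdm5a in the 4 columns. The gene of Kdm5a lies on chromosome 6 from 120364099 to 120444574 (GRCm38.p6) and overlaps Ccdc77, which was at 6.41 FPKM in early and 28.1 FPKM in late 2-cell embryos. Whether the counting used strand is not given in the sources used here, so reads from the overlap cannot be assigned to either gene with certainty. Kdm5b lies on chromosome 1 from 134560178 to 134632878 and overlaps Mgat4e, which did not exceed 0.16 FPKM in any column.

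Among the methyltransferases, Kmt2c and Kmt2d were the most abundant in every column. They encode MLL3 and MLL4, the enzymes that place monomethylation at enhancers. Kmt2c was at 14.5 FPKM in 1-cell embryos, 13.8 and 20.1 at the early and late 2-cell stages, and 16.2 with TSA. Kmt2d was at 11.1, 10.2, 18.1 and 16.5 FPKM in the same order. Together these 2 genes held 78.3% to 79.4% of the summed FPKM of the 6 methyltransferases, nearly the same share in all 4 columns.

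The other 4 methyltransferases were at low levels. Kmt2a encodes MLL1, which maintains Hox gene expression, and Kmt2b encodes MLL2. Kmt2a was at 0.15 FPKM in 1-cell and 0.21 in early 2-cell embryos, below 1 FPKM in both, and at 2.20 in late 2-cell and 1.35 in TSA-treated embryos. Kmt2b was at 1.47, 1.52, 1.32 and 0.96 FPKM, so its values lay within 1.57-fold of each other. Kmt2b therefore stood at 10.0 times Kmt2a in 1-cell and at 0.60 times Kmt2a in untreated late 2-cell embryos.

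Setd1a and Setd1b encode the enzymes of the SET1 complexes, which account for much of the H3K4 trimethylation of mammalian cells. Setd1a was at 2.07, 1.69, 4.42 and 4.04 FPKM over the same 4 columns. Setd1b was at 3.39, 3.18, 2.59 and 2.14 FPKM, highest in the 1-cell column and lowest with TSA. The order of this pair also changed, with Setd1b at 1.88 times Setd1a in early and 0.59 times Setd1a in untreated late 2-cell embryos. In both pairs the gene that was ahead in the early columns, Kmt2b or Setd1b, was the lower one in both late columns.

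The shared subunits were the most abundant of the 10 genes in 3 of the 4 columns, the exception being the early 2-cell column, where Ash2l lay below Kmt2c and Kmt2d. Wdr5, whose WD40-repeat product holds the methyltransferase in the complex, was at 92.4 FPKM in 1-cell embryos, 80.3 and 123 at the early and late 2-cell stages, and 150.2 with TSA. Ash2l, which together with RBBP5 stimulates the catalytic domain, was at 16.6, 7.88, 113 and 159.8 FPKM. Both genes were lowest at the early 2-cell stage. Wdr5 was present at a high level throughout, whereas Ash2l was level with Wdr5 only in the late columns. The ratio of Wdr5 to Ash2l was 5.57, 10.2, 1.09 and 0.94 in the 4 columns. Without replicate values, the order of neighbouring levels of any of these genes cannot be judged against their spread.

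**Figure D1:**
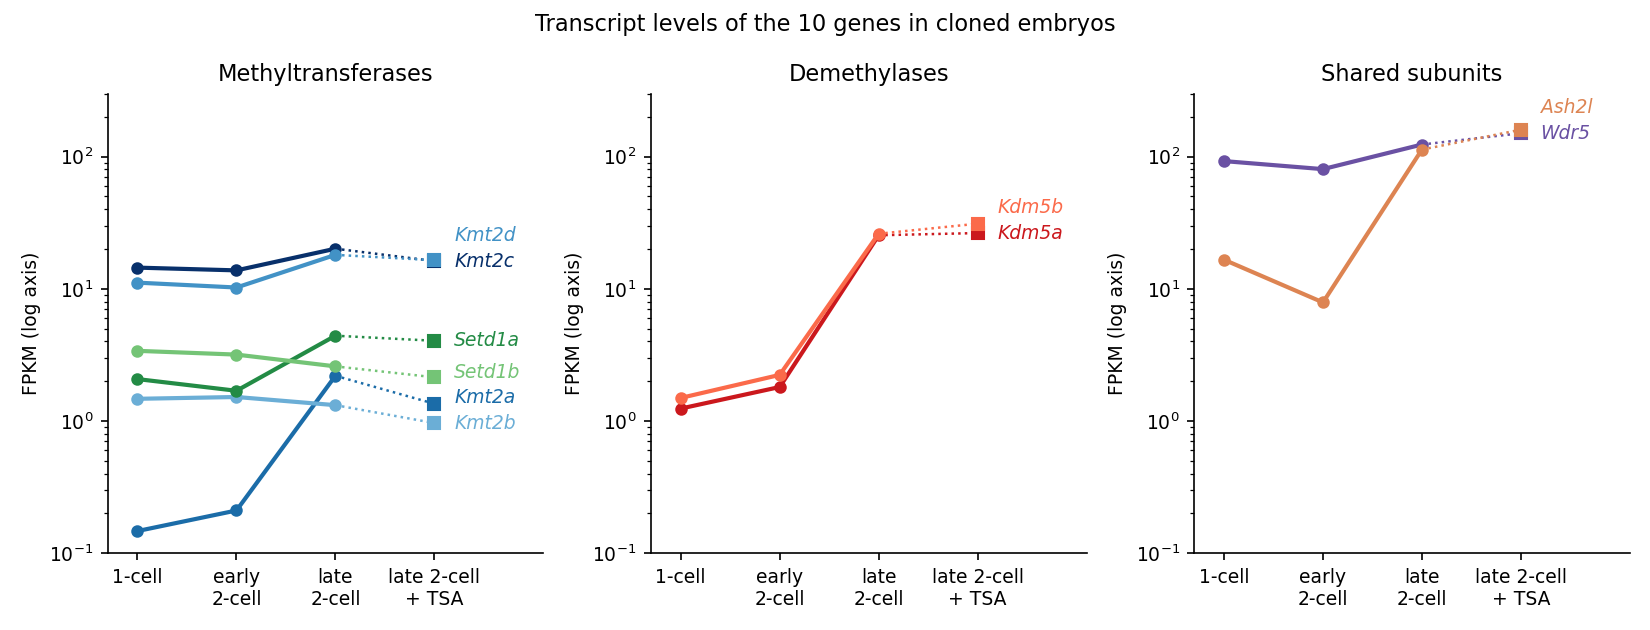
FPKM on a log axis for the 6 methyltransferases, the 2 demethylases and the 2 shared subunits in the 4 groups. Circles joined by solid lines are untreated groups and squares are TSA-treated late 2-cell embryos, each point being the authors' single value for the group. Kdm5a, Kdm5b and Ash2l climb steeply to the late 2-cell stage, as does Kmt2a from a value under 1 FPKM. Kmt2b and Setd1b stay flat or lower.

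Promoter sequences from RefSeq (GRCm38.p6), running from 250 bases before to 50 bases after the start that the promoter table uses, were matched by symbol for 6 of the 10 genes, namely Kmt2a, Kmt2c, Kmt2d, Setd1a, Kdm5b and Wdr5. The entries of Kmt2b, Setd1b, Kdm5a and Ash2l are missing. That start is the outer end of the RefSeq gene for Setd1a, Kdm5b and Wdr5, and lies 63, 72 and 2872 bases inside it for Kmt2a, Kmt2c and Kmt2d. CpG dinucleotides were counted because MLL1, MLL2 and the SET1 complex subunit CFP1 carry CXXC domains, which bind unmethylated CpG. Shown here are the 3 of these genes that were 2-fold higher at the late 2-cell stage (Kdm5b, Kmt2a and Setd1a) and, for contrast, Kmt2c, which was not. Capitals mark CpG dinucleotides, and each sequence is given 5′ to 3′ on the strand of its gene.
Kdm5b: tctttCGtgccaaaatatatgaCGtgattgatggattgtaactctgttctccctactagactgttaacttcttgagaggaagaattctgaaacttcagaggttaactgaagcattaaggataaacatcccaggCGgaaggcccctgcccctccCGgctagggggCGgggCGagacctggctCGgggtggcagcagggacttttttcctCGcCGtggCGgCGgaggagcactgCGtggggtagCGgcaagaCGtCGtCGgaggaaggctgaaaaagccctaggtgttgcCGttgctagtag
Kmt2a: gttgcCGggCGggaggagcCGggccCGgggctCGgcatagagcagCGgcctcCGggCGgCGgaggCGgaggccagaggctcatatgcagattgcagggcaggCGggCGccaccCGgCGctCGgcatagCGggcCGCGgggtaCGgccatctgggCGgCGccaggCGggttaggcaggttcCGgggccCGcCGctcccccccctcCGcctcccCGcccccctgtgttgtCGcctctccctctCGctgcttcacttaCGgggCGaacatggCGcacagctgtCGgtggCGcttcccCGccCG
Setd1a: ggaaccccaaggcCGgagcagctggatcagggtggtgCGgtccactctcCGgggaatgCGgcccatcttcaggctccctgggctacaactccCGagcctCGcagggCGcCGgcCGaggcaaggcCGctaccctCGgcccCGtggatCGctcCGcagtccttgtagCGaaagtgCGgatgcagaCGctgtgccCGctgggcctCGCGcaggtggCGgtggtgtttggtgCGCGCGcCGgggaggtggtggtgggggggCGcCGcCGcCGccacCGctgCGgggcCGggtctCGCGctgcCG
Kmt2c: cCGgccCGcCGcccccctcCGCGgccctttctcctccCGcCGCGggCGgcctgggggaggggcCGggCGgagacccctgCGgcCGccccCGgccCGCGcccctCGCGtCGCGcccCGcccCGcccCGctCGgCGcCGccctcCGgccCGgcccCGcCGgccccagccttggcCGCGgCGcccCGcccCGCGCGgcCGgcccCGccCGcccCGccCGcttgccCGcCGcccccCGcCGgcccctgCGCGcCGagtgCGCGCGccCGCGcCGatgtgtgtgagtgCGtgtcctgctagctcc
The Kdm5b window lies at chr1:134559928-134560227 on the plus strand, that of Kmt2a at chr9:44881240-44881539 on the minus strand, that of Setd1a at chr7:127777139-127777438 on the plus strand and that of Kmt2c at chr5:25498734-25499033 on the minus strand. Kdm5b held 17 CpGs, Kmt2a 36, Setd1a 35 and Kmt2c 56, against a median of 7 over 32851 mouse promoters of the same length. Kmt2d held 27 and Wdr5 22, so all 6 windows were richer in CpG than the median promoter, and Kdm5b had the fewest among them. The letters GGGCGG, a GC box, were found on either strand in 5 of the 6 windows and in 35.7% of all promoters; the number of matches was 12 for Kmt2c, 5 for Kmt2a, 4 for Kmt2d, 2 for Wdr5, 1 for Kdm5b and 0 for Setd1a. The letters TATAAA were in 0 of the 6 windows and in 13.6% of all promoters, and CCAAT was in 0 of the 6 and in 37.4%. Wdr5 held 1 match to the palindromic motif of NRF1, which 4.60% of all promoters hold. CpG counts were 17, 35 and 36 in the 3 genes that were 2-fold higher at the late 2-cell stage. They were 22, 27 and 56 in the 3 that were not. Whether CpG content goes with the late values was not tested, and Kdm5a and Ash2l have no window here.

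The first cleavage was described by comparing early 2-cell with 1-cell embryos. Of the 10 genes, 9 had at least 1 FPKM in either column, Kmt2a being the exception, and 0 of these 9 were 2-fold higher or lower, where 3.72% of all 10117 genes measured in this way were higher and 7.12% lower. The gene nearest to the threshold was Ash2l, at 7.88 FPKM after and 16.6 before cleavage, a difference of -0.99, or a fall to 0.48 times in plain FPKM. It passed the threshold with a pseudocount of 0.1, at -1.06. Kdm5a and Kdm5b differed by 0.32 and 0.37. The remaining 6 genes lay between -0.20 and 0.03, and the direction of Kmt2c, Kmt2d and Setd1b depended on the scaling. The median of the 9 genes was -0.07 and that of all genes -0.08. Of all genes counted here as 2-fold apart, 34.3% were higher, against 48.9% after median-ratio scaling and 47.3% after quantile normalization.

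The late 2-cell stage was then compared with the early 2-cell stage, across the main wave of genome activation. Kdm5a, Kdm5b, Ash2l, Kmt2a and Setd1a were 2-fold higher, 5 of 10 genes, and 0 of 10 were 2-fold lower. This share is close to the background, since 47.9% of 12794 genes were 2-fold higher and 10.9% were lower, and the median of the 10 genes, 0.89, lay beside that of all genes, 0.92. As a group these genes therefore did not stand apart from the table, and the differences lie between its members.

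The median of all genes in this comparison moved with the scaling, to 0.42 after median-ratio scaling and -0.14 after quantile normalization, so differences are also given relative to it. Ash2l differed by 3.68, which was 2.76 above the median gene and higher than 95.8% of all genes. Kdm5a differed by 3.23, or 2.32 above the median, and Kdm5b by 3.07, or 2.15 above it, higher than 93.0% and 91.5% of all genes. These 3 genes were 2-fold higher under each of the 6 other settings tried. Their differences ran from 2.92 to 3.82 for Ash2l, 2.16 to 3.74 for Kdm5a and 2.08 to 3.49 for Kdm5b. Settings that only change the FPKM filter repeat a gene's own difference, so only the pseudocounts and scalings could move it.

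Kmt2a differed by 1.40, or 10.4-fold in plain FPKM from an early value under 1 FPKM. It was measured only through its late 2-cell value, so it could enter the comparison only by being higher there. It was 2-fold higher under 3 of 5 other settings that gave a value. Setd1a, at 1.01, was just past the threshold and 0.09 above the median gene, and it was 2-fold higher under 2 of 5 other settings, with a difference of -0.11 after quantile normalization. For Kmt2a and Setd1a, the settings counted include that without a filter, which repeats the main difference. Kmt2d differed by 0.76, Wdr5 by 0.61 and Kmt2c by 0.51, all positive but below the median of all genes. The direction of Kmt2c turned after both scalings and that of Kmt2d after quantile normalization. Kmt2b differed by -0.12 and Setd1b by -0.22, or -1.04 and -1.14 relative to the median gene, and both were 2-fold lower after quantile normalization. These 2 were the members listed lower at the late stage on the authors' scale, and their sign was negative under every setting that gave a value. Of all genes counted as 2-fold apart, 81.4% were higher, against 65.9% after median-ratio scaling and 49.1% after quantile normalization.

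**Figure D2:**
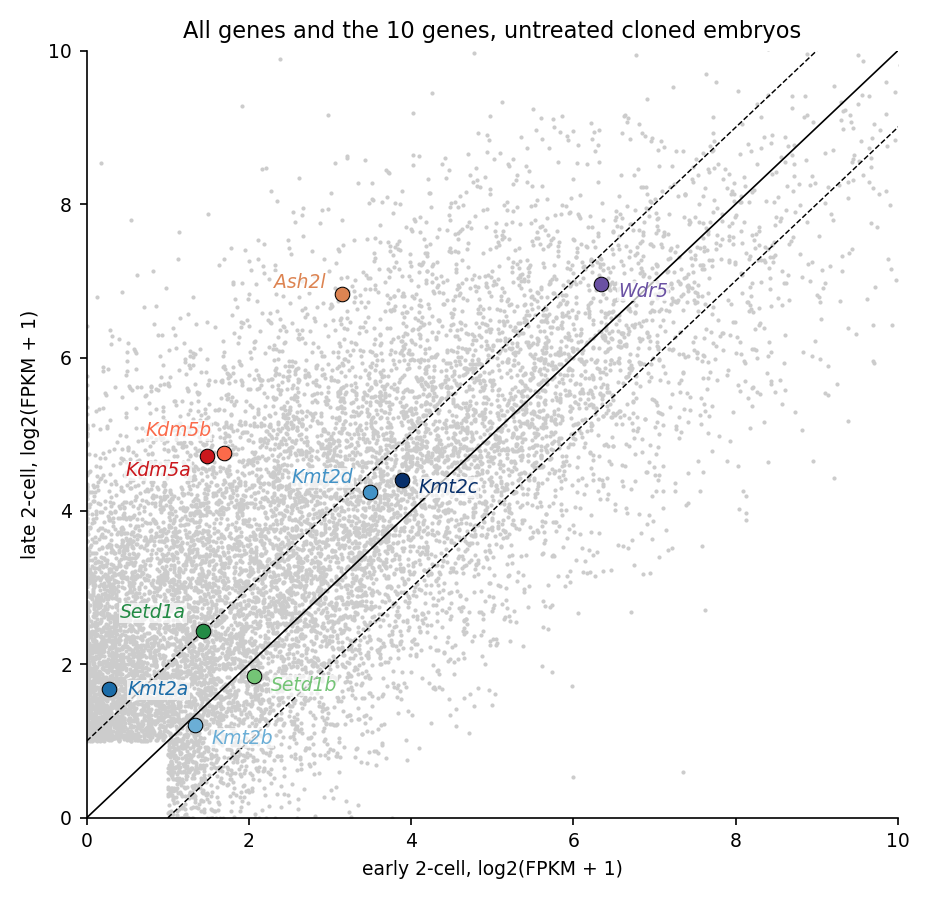
Grey points are genes measured at 1 FPKM or more in either column, plotted by log2(FPKM + 1) in untreated early (x axis) and late (y axis) 2-cell embryos; genes above 10 on either axis are not drawn. Values are equal on the solid line and differ by 1 on the dashed ones. Ash2l, Kdm5a and Kdm5b lie far above the upper dashed line, at differences of 3.68, 3.23 and 3.07, and Kmt2b and Setd1b lie just under the solid line.

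Summed by role, the 6 methyltransferases held 32.7 FPKM at the 1-cell, 30.6 at the early 2-cell and 48.7 at the late 2-cell stage, and 41.2 with TSA. The 2 demethylases held 2.73, 4.04, 51.5 and 57.5 FPKM. The summed level of the methyltransferases was thus 11.9 times that of Kdm5a and Kdm5b together in 1-cell embryos. This ratio was 7.58 in early 2-cell embryos, and 0.95 and 0.72 in the late columns. A ratio within a column does not depend on a scaling that multiplies the whole column, and after quantile normalization it ran 9.34, 6.69, 0.88 and 0.67. The demethylase sum was 12.7-fold higher at the late than at the early 2-cell stage, 8.31-fold after median-ratio scaling and 5.48-fold after quantile normalization. The methyltransferase sum was 1.59-fold higher, 1.04-fold after median-ratio scaling and 0.72 times after quantile normalization, so its direction depended on the scaling. Kdm5a and Kdm5b are not all of the H3K4 demethylases. With Kdm1a, Kdm1b and Kdm5c, described below, the demethylase sum was 72.8, 85.8, 74.6 and 81.9 FPKM. That was above the sum of the 6 methyltransferases in every column. The 7 other methyltransferases described below were not added to that sum, so it does not set all writers against all erasers. Of these, Ash1l alone was at 37.2, 28.9, 43.7 and 49.7 FPKM in the 4 columns.

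The TSA-treated column was set against the untreated late 2-cell column, to see where these genes stood in embryos that had received TSA. Of the 10 genes, 0 were 2-fold higher and 0 were 2-fold lower, where 2.51% of all 12756 genes were higher and 4.08% lower. All 6 methyltransferases were lower with TSA, by -0.10 to -0.44, and both demethylases and both shared subunits were higher, by 0.05 to 0.50. Kmt2d and Setd1a turned after median-ratio scaling, to 0.02 each, and Setd1a also after quantile normalization, so 4 of the 6 methyltransferases, Kmt2a, Kmt2b, Kmt2c and Setd1b, were lower under every setting that gave a value. Over all genes, 56.7% were below 0 and the median was -0.08.

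The largest of these differences was that of Ash2l, at 159.8 FPKM with and 113 without TSA, a difference of 0.50 and higher than 87.7% of all genes. Wdr5 differed by 0.28 and Kdm5b by 0.24, while Kdm5a differed by 0.05. Kmt2a had the lowest difference, -0.44, at 1.35 FPKM with and 2.20 without TSA. Kmt2c differed by -0.29 and Kmt2b by -0.24. With 1 value per group, whether differences of this size exceed the spread between embryos cannot be said. Of all genes 2-fold apart with TSA, 38.1% were higher, against 58.2% after median-ratio scaling and 53.8% after quantile normalization. This comparison and the one before it share the untreated late 2-cell column, as the 2 stage comparisons share the early 2-cell column.

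**Figure D3:**
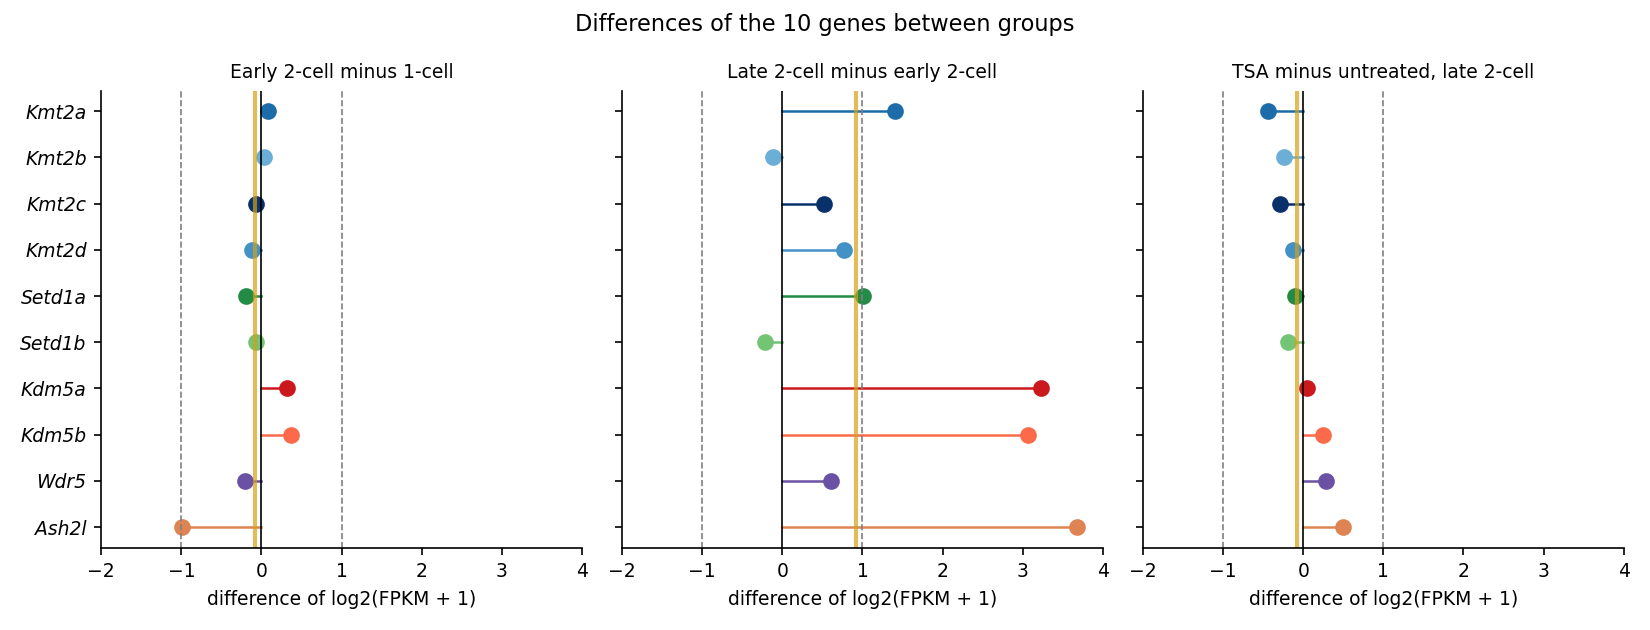
Differences of log2(FPKM + 1) for the 10 genes in the 3 comparisons, with dashed lines at -1 and 1 and a yellow line at the median of all genes in that comparison. Between the 2-cell stages Kdm5a, Kdm5b and Ash2l lie more than 2 beyond the median of 0.92, and with TSA all 10 points lie between -0.44 and 0.50.

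Of the other genes for H3K4 demethylases, 3 were lower at the late 2-cell stage, where Kdm5a and Kdm5b were higher. Kdm1b, a flavin-dependent demethylase needed for imprint establishment in the oocyte, was at 27.0 FPKM in 1-cell embryos, 28.1 and 5.45 at the early and late 2-cell stages, and 5.30 with TSA. Kdm1a, which encodes LSD1, was at 18.5, 26.8, 8.80 and 10.5 FPKM, and Kdm5c, the X-linked relative of Kdm5a and Kdm5b, at 24.7, 26.9, 8.89 and 8.72 FPKM. Kdm1b, Kdm1a and Kdm5c were 2-fold lower at the late than at the early 2-cell stage, by -2.17, -1.50 and -1.50. The Y-linked Kdm5d was listed at 0 in all columns. Kdm5a and Kdm5b held 3.75% of the summed FPKM of these 5 demethylases (Kdm5d aside) in 1-cell and 4.71% in early 2-cell embryos, and 69.0% and 70.1% in the late columns. The sum of all 5 was 72.8, 85.8, 74.6 and 81.9 FPKM on the authors' scale, but 81.1, 105.5, 59.9 and 73.0 FPKM after median-ratio scaling and 88.5, 117, 52.3 and 61.0 after quantile normalization. Kdm1a and Kdm5c, and this grouping, were chosen after their values had been seen. Of the list of other demethylases and their CoREST partners, 2 of 6 measured genes were 2-fold higher (Rcor1 and Rcor2) and 3 were lower, beside 47.9% and 10.9% of all genes, and 0 were higher and 4 lower after quantile normalization. Rcor2 was below 1 FPKM at the early stage, so it could enter only by being higher later. Rcor1, a scaffold of the LSD1 complex, was at 6.08 FPKM in early and 25.2 FPKM in late 2-cell embryos.

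The remaining core subunits did not follow Ash2l. Dpy30, the smallest core subunit, was at 243 FPKM in 1-cell embryos, 372 and 51.3 at the early and late 2-cell stages, and 33.8 with TSA, a difference of -2.84 between the 2-cell stages. Rbbp5, named here outside the fixed rule because it completes the core, was at 28.5, 14.1, 12.4 and 8.61 FPKM. At the first cleavage it differed by -0.97, close to the -0.99 of Ash2l, but it was not higher again at the late stage. The highest of the 4 core subunits stood at 14.6 times the lowest in 1-cell embryos, 47.2 and 9.98 times at the early and late 2-cell stages, and 18.5 times with TSA. Dpy30 was the highest of the 4 in both early columns and below Wdr5 and Ash2l in both late ones.

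**Figure D4:**
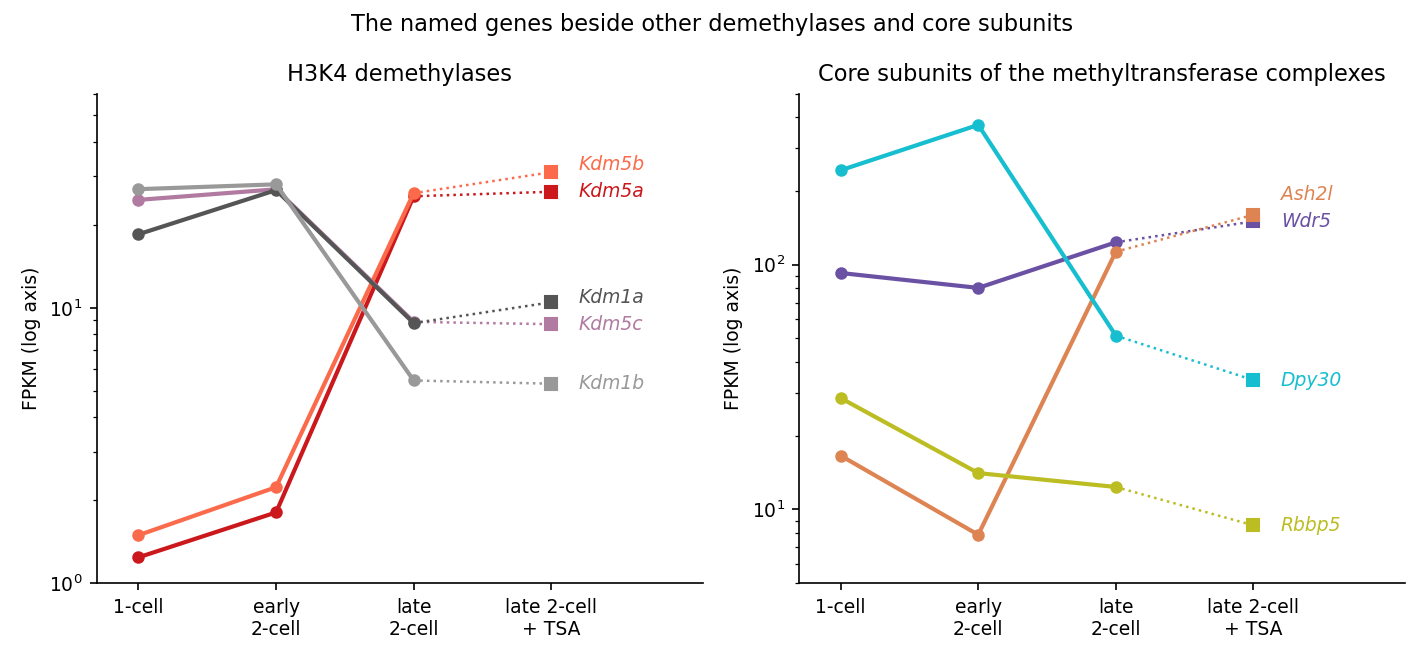
FPKM on a log axis for 5 H3K4 demethylase genes (left) and 4 core subunit genes (right), with circles and solid lines for untreated groups and squares for TSA-treated late 2-cell embryos. Kdm5a and Kdm5b cross Kdm1a, Kdm1b and Kdm5c between the early and late 2-cell columns, and Ash2l crosses Dpy30 and Rbbp5. The Kdm1a and Kdm5c points nearly coincide in the 2-cell columns without TSA.

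The wider pathway was described with 5 lists of 54 genes in all. Between the 2-cell stages 20 of 52 measured genes (38.5%) were 2-fold higher and 9 (17.3%) were lower, beside 47.9% and 10.9% of all genes, and their median was 0.30. This split depended on the scaling, with 7 higher and 23 lower after quantile normalization. Among the higher genes, Setd7, Smyd2, Rcor2 and Ing4 were below 1 FPKM at the early stage. They could enter only by being higher later. Of 14 other COMPASS subunits, 4 were higher (Hcfc1, Men1, Pagr1a and Paxip1) and 3 were lower (Dpy30, Psip1 and Kdm6a), with a median of -0.35. After median-ratio scaling 2 were higher and 5 lower with a median of -0.92, and after quantile normalization 0 and 10 with a median of -1.17. Men1, which encodes menin and serves the MLL1 and MLL2 complexes, was at 1.85 FPKM in early and 7.38 in late 2-cell embryos. Psip1, whose product tethers menin to chromatin, was the most abundant of this list at 1116 against 330.2 FPKM. Kdm6a, the H3K27 demethylase subunit of the MLL3 and MLL4 complexes, was at 44.5 against 12.3 FPKM, while Paxip1, a subunit of the same complexes, was at 10.6 against 36.3 FPKM. Men1, Kdm6a and Paxip1 lie outside the fixed rule and were chosen after their values had been seen.

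Of 7 other methyltransferases assigned to H3K4 or related to these enzymes, 4 were 2-fold higher between the 2-cell stages (Kmt2e, Prdm9, Setd7 and Smyd2) and 0 were lower, a share of 57.1% beside 47.9% of all genes. The 4 became 2 after median-ratio scaling and 0 after quantile normalization, with 0 lower in both. Setd7 and Smyd2 were below 1 FPKM at the early stage, so they could enter only by being higher later. Smyd2 was at 0.73 FPKM in early and 5.66 FPKM in late 2-cell embryos, and Ash1l was the most abundant of the list, at 28.9 and 43.7 FPKM. Monoubiquitination of H2B, which depends on the PAF1 complex, stimulates H3K4 methylation. Of 11 genes of this step, 6 were 2-fold higher at the late stage (Leo1, Wdr61, Paf1, Ube2b, Rnf40 and Wac) and Rtf1 was lower, 54.5% higher beside the same 47.9%. The median was 1.07, and -0.03 after quantile normalization; 4 were higher after either scaling, and 3 were lower after median-ratio scaling and 2 after quantile normalization. Leo1, a PAF1 complex subunit, was at 16.3 FPKM in 1-cell embryos, 7.69 and 46.6 at the early and late 2-cell stages, and 75.7 with TSA, and Paf1 was at 16.2, 7.77, 43.6 and 50.5 FPKM. Both had their lowest value at the early 2-cell stage, as Ash2l did. Wdr61 was at 10.3 FPKM in early and 58.1 in late 2-cell embryos, the E2 enzyme gene Ube2b at 29.5 and 120 FPKM, and the E3 ligase gene Rnf20, which held the highest single value of the list (149 FPKM with TSA), at 148 and 108 FPKM. At the first cleavage 1 of 49 measured pathway genes was 2-fold apart, Smyd3, at 4.93 against 13.1 FPKM. Of all genes, 3.72% were higher and 7.12% lower in that comparison. With TSA 0 of 52 pathway genes were 2-fold apart, where 2.51% of all genes were higher and 4.08% lower.

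Likeness of course was measured as the root mean square difference over the 4 columns after each gene's mean log2(FPKM + 1) was subtracted, so 0 means the same course. Kdm5a and Kdm5b were 0.07 apart, and Ash2l was 0.49 from each of them. Kmt2d was 0.11 from Setd1a, 0.15 from Wdr5 and 0.17 from Kmt2c. Adding 1 to FPKM flattens the course of genes at low levels such as Setd1a. Between the 2-cell stages Setd1a differed by 2.61-fold and Kmt2d by 1.77-fold in plain FPKM. Kdm5a and Kdm5b were 1.89 and 1.88 from Setd1b, their most distant member. Neighbours were sought among 8494 genes with at least 5 FPKM in some column. Predicted and clone-named genes, small RNA genes and small nucleolar RNA host genes were left out, also from the counts below. The nearest to Kdm5a were Hars2 and Cby1, to Kdm5b Eif3f and Sbno1, and to Ash2l Rpl7l1. Those nearest to Kmt2c were Nsun4 and Derl3, to Kmt2d Hnrnpl and R3hdm2, and to Wdr5 Cdc42ep2 and Rest. Courses over 4 columns are widely shared: 337 genes lay within 0.25 of Kdm5a, 355 of Kdm5b, 837 of Kmt2c, 901 of Kmt2d and 660 of Wdr5, while 54 lay within 0.25 of Ash2l.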

How the data were processed

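RNA libraries of SCNT embryos were summarised by the authors in 1 table of log2(FPKM + 1), per the file headers. The submitters' processing notes list, without roles, Bowtie2 2.3.4.3, Cufflinks, deepTools 2.5.7, StringTie 1.3.4, HISAT2 2.1.0, SAMtools 1.7 and the build mm10. How the 5 libraries became 1 value, and with which annotation, is not given in the sources used here. Of 6 value columns, 4 were matched to groups. The other 2 fit no RNA group of the labels and were left out, and the 35 chromatin libraries were not analysed here. FPKM times genomic span of genes up to 2000 bases showed no whole-read steps (18.4% to 20.7% of values within 0.1 of a whole multiple, 20% without steps), so depth is unknown.

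From these values, FPKM, differences and counts at a difference of 1 were computed with Python 3.11.15, pandas and NumPy. Genes needed at least 1 FPKM in either column of a comparison. The calling code was tested on simulated data without noise, which checks the code and not how reliable the calls are. There are no replicate values, hence no test. Alternatives were pseudocounts of 0.1 and 5, no filter, a filter of 5 FPKM, median-ratio scaling and quantile normalization. Genes and lists were chosen with earlier results of these data known. All 10 members are named; of the pathway lists, up to 12 genes per comparison that were 2-fold apart with at least 5 FPKM, and the most abundant gene of each list; of like genes, the nearest 2, of which 1 is not reported here. Gene positions are from RefSeq, GRCm38.p6.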

Additional observations from a re-analysis of the deposited data

How the results depend on the processing

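Kdm5a, Kdm5b and Ash2l were 2-fold higher at the late than at the early 2-cell stage under all 6 alternatives. Those that only change the filter repeat a gene's own difference and could not have moved it. Of the other results, several depended on the choices. No paired analysis was possible because the table holds 1 value per group. Leaving out replicates was not possible for the same reason, and genes under a filter gave no value there. Depth is unknown, so no limit of detection can be given. Apart from changes that follow from the settings' construction (a larger pseudocount shrinks, a smaller one widens differences, a filter leaves fewer genes), the cause was not tested.

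At the first cleavage, the members' 0 lower became 1 with a pseudocount of 0.1, and their median of -0.07 became 0.040 after median-ratio scaling and 0.047 after quantile normalization; Kmt2c became 0.071 and 0.10, Kmt2d 0.020 and 0.058, and Setd1b 0.040 under the first. The methyltransferase sum, 0.94-fold, became 1.04-fold under both. All genes (376 higher, 720 lower, median -0.08) gave 713 and 1152 with a pseudocount of 0.1, 90 and 334 with 5, 182 higher with the stricter filter, and medians of 0.049 and 0.019 after the 2 scalings. Pathway genes lower, 1, became 5 with a pseudocount of 0.1 and 0 with 5.

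Between the 2-cell stages, the members' 5 higher became 3 with a pseudocount of 5, with the stricter filter and after quantile normalization, which also gave 2 lower; their median of 0.89 was 1.07 with a pseudocount of 0.1 and 1.92 over the 6 genes of the stricter filter. Kmt2c became -0.068 and -0.43 after the 2 scalings, and Kmt2d -0.24 and Setd1a -0.11 after quantile normalization. The methyltransferase sum, 1.59-fold, became 0.72-fold after quantile normalization, and the shared subunits' 2.68-fold became 1.75-fold and 1.88-fold after the 2 scalings. All genes (6128 higher, 1399 lower, median 0.92) gave 3556 and 847 with a pseudocount of 5, 2377 lower after median-ratio scaling, 3378 and 3508 after quantile normalization, and medians of 1.18 with a pseudocount of 0.1, 1.02 with the stricter filter and -0.14 after quantile normalization. Pathway genes (20 higher, 9 lower, median 0.30) gave 12 higher with a pseudocount of 5, 17 lower with a median of -0.27 after median-ratio scaling, and 7 and 23 with a median of -0.72 after quantile normalization, when the H2B list's median was -0.029.

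With TSA, the members' median of -0.11 became 0.15 with the stricter filter, 0.018 after median-ratio scaling and 0.015 after quantile normalization; Kmt2d became 0.016 and Setd1a 0.019 under the first scaling, and Setd1a 0.015 under the second. All genes (320 higher, 520 lower, median -0.08) gave 614 and 1074 with a pseudocount of 0.1, 89 and 92 with 5, 179 and 280 with the stricter filter, 291 lower and a median of 0.057 after median-ratio scaling, and 298 lower after quantile normalization. Pathway genes lower, 0, became 2 with a pseudocount of 0.1, and their median of -0.03 became 0.10 and 0.027 after the scalings. List medians turned after median-ratio scaling for other COMPASS subunits (0.025), other methyltransferases (0.076, and 0.081 after quantile normalization), other demethylases (0.10, and 0.044) and the H2B list (0.14), and for readers to -0.019 with no filter and with the stricter one.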

Other observations

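Genes whose products read H3K4 methylation also differed between the 2-cell stages in both directions. Of 14 measured reader genes, Ing1, Chd1, Ing4 and Dido1 were 2-fold higher at the late 2-cell stage and Spin1 and Ing3 were lower, with a median of -0.17 beside 0.92 for all genes. These are 28.6% and 14.3% of the list, beside 47.9% and 10.9% of all genes. After median-ratio scaling 4 were higher and 6 lower, and after quantile normalization 3 and 7. Ing4 was below 1 FPKM at the early 2-cell stage, so it could enter only by being higher later. Spin1, a reader of H3K4 trimethylation that is stored in the oocyte, was at 22919 FPKM in 1-cell embryos, 30986 and 4539.9 at the early and late 2-cell stages, and 5326 with TSA. Chd1, a chromatin remodeller that binds H3K4 trimethylation, was at 3.85, 4.02, 28.3 and 29.8 FPKM, low in both early and high in both late columns, as Kdm5a and Kdm5b were. Ing1, whose product links H3K4 trimethylation to a deacetylase complex, was at 27.4, 15.6, 113 and 134 FPKM, and Ing4, of an acetyltransferase complex, at 1.33, 0.53, 7.85 and 8.49 FPKM. With TSA 0 of the 14 were 2-fold apart, where 2.51% of all genes were higher and 4.08% lower.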
